A study of Mus musculus with 15 samples.

Results

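The transcripts of 10 glycolytic enzymes, *Hk1*, *Gpi1*, *Pfkm*, *Aldoa*, *Tpi1*, *Gapdh*, *Pgk1*, *Pgam1*, *Eno1* and *Ldha*, were examined in RNA-seq of adult mouse cortex. The genes were chosen by name, as abundant enzymes of the pathway that include the PCR reference gene of the study, and all 10 were found among the 23235 genes of the table. All 10 also had an average of 1 FPKM or more over the groups (fragments per kilobase of transcript, scaled to the mapped fragments of the library), as did 10297 genes in all, which are called tested genes here. WT mice were C57BL/6J, and *Snord116del* mice were B6(Cg)-Snord116tm1.1Uta/J animals of genotype +/-, which lack the *Snord116* cluster on the paternal chromosome and were littermates of the WT mice. The cortex was taken in the light phase at Zt +6 (hours after lights on) or in the dark phase at Zt +16, from 3 WT and 2 *Snord116del* mice at Zt +6 and from 2 and 2 mice at Zt +16, all of them males according to the methods. The table gives 1 Cuffdiff value for each gene and group, so the spread between mice cannot be seen, no difference could be tested, and neighbouring levels cannot be told apart or ranked beyond their printed order. Values of a gene in the 4 groups are given for WT and then for *Snord116del*, first in the light and then in the dark. A gene was counted as higher or lower when FPKM + 1 differed by at least 1.5-fold between groups, with at least 1 FPKM in the higher group. FPKM is a share of the library, so a higher level cannot be told apart from a lower level of other transcripts, and in whole cortex fewer cells of a type cannot be told apart from less RNA per cell.

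Glycolysis splits glucose into pyruvate in the cytosol and yields ATP and NADH on the way. Its early enzymes spend ATP to phosphorylate and cleave the sugar, its later enzymes recover ATP from the triose phosphates, and lactate dehydrogenase turns pyruvate into lactate and back. The adult brain runs mainly on glucose, and *Gapdh* is widely used as a reference in RT-qPCR and on immunoblots because its product is abundant in most cells.

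Some facts of the whole table bear on every value below. The summed FPKM was 159300 and 160199 for WT and *Snord116del* in the light, but 216422 and 342188 in the dark, so the groups do not share a common total. The deleted gene, *Snord116*, is listed at 0 FPKM in all 4 groups and does not check the labels. *Ipw*, a non-coding RNA of the same imprinted region, was listed at 21.6 and 3.40 FPKM in the light and at 3.17 and 1.82 in the dark. The labels of both *Snord116del* mice and 1 WT mouse at Zt +6 name an earlier version of the table than those of the other mice. All 8 neuronal markers and all 7 astrocyte markers listed were above the filter. The marker of choroid plexus that passed the filter, *Ttr* (transthyretin), stood at 200 and 182 FPKM in the light and at 24.9 and 29.6 in the dark. *Hbb-b2* (a haemoglobin chain) stood at 62.6, 18.0, 409 and 401 in the same order. *Hbb-b1*, another haemoglobin chain, went the other way from light to dark, at 36.8, 89.4, 18.9 and 26.0. The part of these differences in the results was not tested.

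*Gapdh* was the most abundant of the 10 enzymes in every group. It converts glyceraldehyde 3-phosphate to 1,3-bisphosphoglycerate and makes NADH. In the light its level was 1386 FPKM in WT and 843 in *Snord116del*, and in the dark 1694 in WT and 3368 in *Snord116del*. The lowest and the highest of the 4 groups were thus both *Snord116del* groups, 3.99-fold apart. Among all genes of the table *Gapdh* ranked 5 and 3 in the light, and 11 and 6 in the dark. *Aldoa*, the aldolase that splits fructose 1,6-bisphosphate, followed at 545, 338, 875 and 1349 FPKM in the same order of groups. *Gapdh* and *Aldoa* together made up 82.8%, 68.8%, 84.9% and 86.7% of the summed FPKM of the 10 enzymes, and all 10 made up 1.46%, 1.07%, 1.40% and 1.59% of the FPKM of the whole table.

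The other 8 enzymes lay between 12.2 and 194 FPKM. Of the enzymes that spend ATP or act before aldolase, *Hk1*, the hexokinase that traps glucose in the cell, was at 35.4 and 49.7 FPKM in the light and at 37.1 and 58.6 in the dark. *Gpi1*, which turns glucose 6-phosphate into fructose 6-phosphate, was at 56.8 and 82.8 in the light and at 57.4 and 98.8 in the dark. *Pfkm*, a phosphofructokinase subunit of the committed step, was the least abundant of the 10 in every group, at 12.2, 19.7, 12.6 and 19.2 FPKM. These 3 transcripts shared one pattern as deposited, with both *Snord116del* values above both WT values. The pattern depended on the scale of the groups. With groups set to the same total FPKM, the log2 change with genotype at Zt +16 was -0.0024 for *Hk1*, 0.12 for *Gpi1* and -0.044 for *Pfkm*. With the same median, that at Zt +6 was -0.34, -0.28 and -0.13.

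The enzymes that handle triose phosphates followed *Gapdh*. *Tpi1*, which interconverts the triose phosphates, was at 67.0 and 51.1 FPKM in the light and at 84.2 and 152 in the dark. *Pgk1*, which makes the first ATP of the pathway, was at 87.9 and 56.7 in the light and at 122 and 194 in the dark. For *Aldoa*, *Tpi1*, *Gapdh* and *Pgk1* alike, the deposited *Snord116del* value was the lowest of the 4 groups at Zt +6 and the highest at Zt +16. As a share of the summed FPKM of its group, however, *Aldoa* was at 0.404% in WT and 0.394% in *Snord116del* at Zt +16. *Pgam1*, a phosphoglycerate mutase, was at 55.9, 62.4, 69.5 and 97.5 FPKM, and *Ldha*, the lactate dehydrogenase subunit A, at 38.0, 39.0, 59.8 and 79.5. For both, the deposited WT and *Snord116del* values lay close together at Zt +6 and further apart at Zt +16. This too depended on the scale of the groups. With the same median, the log2 changes of *Pgam1* and *Ldha* with genotype were -0.66 and -0.77 at Zt +6. At Zt +16 they were 0.021 and -0.054. *Eno1*, the enolase that forms phosphoenolpyruvate, differed from all others as listed. It was at 46.5 and 174 FPKM in the light and at 16.3 and 20.4 in the dark. Both dark-phase values were thus below both light-phase values. With its near-identical copy *Gm5506* added, the sum was 135 and 205 FPKM in the light and 212 and 355 in the dark.

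**Figure D1:**
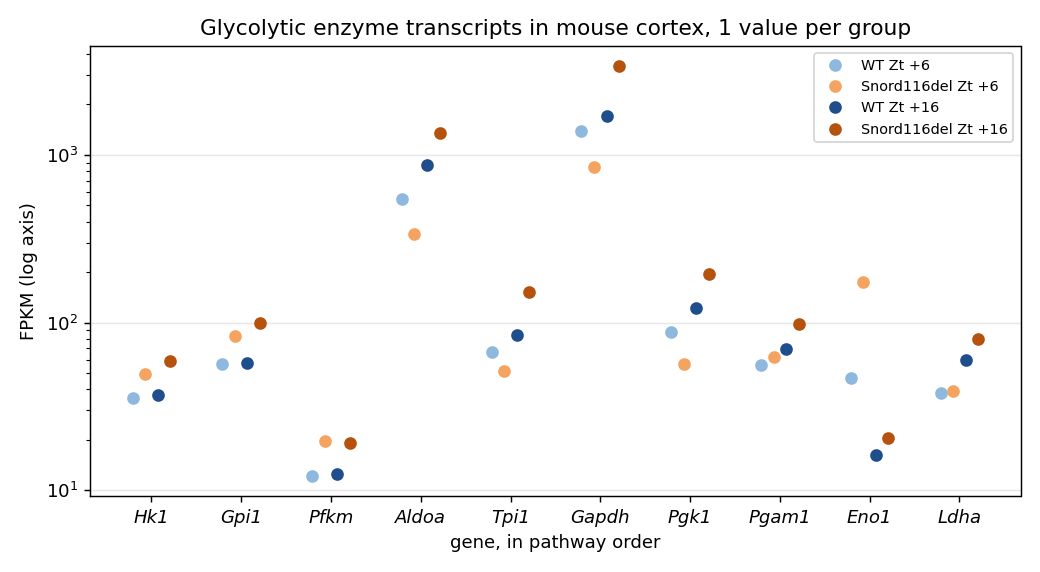
FPKM of the 10 enzymes on a log axis, with 1 point for each group and the genes in pathway order; there are no error bars because the table has 1 value per group. *Gapdh* and *Aldoa* stand above the rest, and *Eno1*, without its copy *Gm5506*, is highest in *Snord116del* at Zt +6 (174 FPKM). As deposited, *Hk1*, *Gpi1* and *Pfkm* have both *Snord116del* points above both WT points, an order that depends on the scale of the groups.

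The sequence upstream of the start site is shown for *Gapdh*, for *Tpi1* and *Pgk1*, whose deposited values had the same order of groups, and for *Ldha*, the only one of these 4 genes with a CACGTG. Each run is the 250 bases before an annotated start, read 5′ to 3′ on the strand of the gene from RefSeq on GRCm38.p6, a build other than that of the peak lists. Capitals mark CACGTG (the E-box of the clock activators CLOCK and BMAL1), ACGTG (the core of the hypoxia response element) and GCGTG, or the reverse complements CACGT and CACGC; every CACGTG also counts as an ACGTG.
Gapdh upstream (chr6:125165774-125166023, minus strand): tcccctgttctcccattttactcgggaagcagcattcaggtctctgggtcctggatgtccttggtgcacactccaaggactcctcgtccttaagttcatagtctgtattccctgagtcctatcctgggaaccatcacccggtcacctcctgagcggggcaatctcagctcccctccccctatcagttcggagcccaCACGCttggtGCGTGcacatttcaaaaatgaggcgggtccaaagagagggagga
Tpi1 upstream (chr6:124814159-124814408, minus strand): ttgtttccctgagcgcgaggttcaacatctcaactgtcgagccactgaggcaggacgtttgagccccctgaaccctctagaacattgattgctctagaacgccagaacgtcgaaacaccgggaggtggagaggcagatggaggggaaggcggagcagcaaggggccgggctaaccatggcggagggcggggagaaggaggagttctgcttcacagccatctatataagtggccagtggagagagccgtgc
Pgk1 upstream (chrX:106186850-106187099, plus strand): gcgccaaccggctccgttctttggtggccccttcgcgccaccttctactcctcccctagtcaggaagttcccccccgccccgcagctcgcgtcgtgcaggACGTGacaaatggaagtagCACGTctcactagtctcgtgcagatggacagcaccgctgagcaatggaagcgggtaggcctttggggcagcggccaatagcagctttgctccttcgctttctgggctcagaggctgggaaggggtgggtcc
Ldha upstream (chr7:46845554-46845803, plus strand): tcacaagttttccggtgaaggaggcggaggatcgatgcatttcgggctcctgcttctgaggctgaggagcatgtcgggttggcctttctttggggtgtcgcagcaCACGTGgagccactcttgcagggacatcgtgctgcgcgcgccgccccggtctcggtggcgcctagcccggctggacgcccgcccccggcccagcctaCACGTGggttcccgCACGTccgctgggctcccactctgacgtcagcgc
Over all listed starts of the 10 genes, CACGTG was found in the window of 2 genes, *Pfkm* and *Ldha*, against 10.6% of the 7363 tested genes with a listed promoter. ACGTG was found in 5 genes (*Pfkm*, *Aldoa*, *Pgk1*, *Pgam1* and *Ldha*), against 26.0% of tested genes, and GCGTG in 6 (*Hk1*, *Pfkm*, *Gapdh*, *Pgam1*, *Eno1* and *Ldha*), against 51.8%. By single promoter, 6.02%, 16.6% and 28.2% of all 32851 listed windows hold the 3 motifs, in that order. *Aldoa*, *Tpi1*, *Gapdh* and *Pgk1*, whose deposited values shared one order of groups, have no CACGTG in these windows, and the *Tpi1* window shown has none of the 3 motifs. A match is a string of letters, and neither a match nor its absence says whether a factor binds.

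The genotype comparison at Zt +6 asks how the cortex of *Snord116del* mice differs from WT in the light phase. *Eno1* was 3.75-fold and *Pfkm* 1.61-fold higher in *Snord116del*, while *Gapdh* was at 0.608, *Aldoa* at 0.620 and *Pgk1* at 0.645 of the WT value. On the log2(FPKM + 1) scale, which slightly understates folds of low genes, these changes were 1.88, 0.65, -0.72, -0.69 and -0.62. *Gpi1* (0.53) and *Hk1* (0.48) lay just inside the limit of 0.58, and *Tpi1* (-0.38), *Pgam1* (0.16) and *Ldha* (0.04) further inside it. Of the 10 enzymes 2 were thus counted as higher and 3 as lower, where 49.3% of tested genes were higher and 7.62% lower. The median change was 0.10 for the enzymes and 0.57 for all tested genes.

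The change at Zt +6 went with transcript length and abundance over the whole table. Tested genes with a longest annotated transcript under 2 kb had a median log2 change of -0.071, those of 2 to 4 kb 0.52 and those of 4 kb or more 1.04, and the 329 genes averaging 100 FPKM or more had a median of -0.69. *Gapdh* (1420 nt), *Aldoa* (1549 nt), *Tpi1* (1607 nt), *Ldha* (1766 nt), *Pgk1* (1825 nt) and *Pgam1* (1831 nt) belong to the short genes, and *Pfkm* (2880 nt), *Gpi1* (3195 nt) and *Hk1* (4278 nt) to the longer ones. The 3 enzymes counted as lower, *Gapdh*, *Aldoa* and *Pgk1*, are all among the short genes and are the 3 most abundant of the 10 on average, while among the longer ones *Hk1*, *Gpi1* and *Pfkm* did not follow the order of length. *Gapdh*, *Aldoa* and *Pgk1* had changes above those of 5.72%, 6.16% and 7.12% of tested genes. *Eno1* (2027 nt) lay apart from the other enzymes, with a change above that of 99.0% of tested genes. With its copy *Gm5506* added, *Eno1* was at 0.60. When the trend with length was taken out, *Gapdh* was at -0.70, *Aldoa* at -0.74 and *Pgk1* at -0.83, and *Pfkm* at 0.14.

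The scale given to the groups decided part of this result. *Gapdh* and *Aldoa* were lower as deposited and with groups set to the same median (-1.55 and -1.52), but turned to 0.14 and 0.084 under quantile normalization and to 0.55 and 0.32 when the trend of the change with level was removed. Of the genes called in either direction, 86.6% were higher as deposited, 38.1% with the same median in each group, 51.9% under quantile normalization, 97.6% with the same *Gapdh*, 48.4% without the length trend and 49.8% without the level trend.

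**Figure D2:**
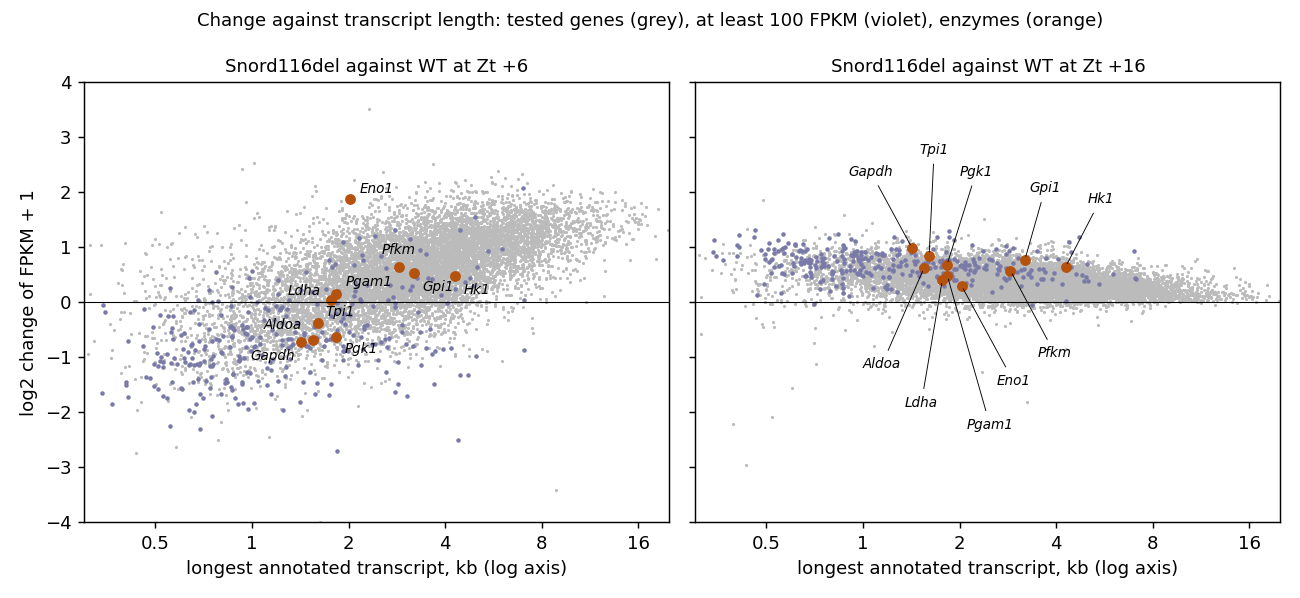
Log2 change of FPKM + 1 in *Snord116del* against WT at Zt +6 and Zt +16 (vertical axes) against the longest annotated transcript in kb (log axis), with 1 point per gene for the 10165 tested genes with a known length, violet from a mean of 100 FPKM and orange for the enzymes; 39 and 41 genes lie outside the axes. At Zt +6 longer transcripts lie higher and *Gapdh*, *Aldoa* and *Pgk1* lie among the low values of short genes as deposited (*Gapdh* and *Aldoa* turn to 0.14 and 0.084 under quantile normalization), whereas at Zt +16 all 10 enzymes lie above 0.

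The genotype comparison at Zt +16 asks the same in the dark phase. All 10 enzymes had a higher level in *Snord116del* than in WT, and 6 of them were counted as higher and 0 as lower, where 19.0% of tested genes were higher and 0.204% lower. *Gapdh* was 1.99-fold higher, *Tpi1* 1.81-fold, *Gpi1* 1.72-fold, *Pgk1* 1.60-fold, *Hk1* 1.58-fold and *Aldoa* 1.54-fold. *Pfkm* lay just outside the count, at 1.53-fold by FPKM and 0.576 on the log2(FPKM + 1) scale against a limit of 0.585, and *Pgam1* (1.40-fold), *Ldha* (1.33-fold) and *Eno1* (1.25-fold) were lower still. The median log2 change was 0.63 for the enzymes, 0.35 for all tested genes, 0.68 for the genes of at least 100 FPKM and 0.50 for those with transcripts under 2 kb. *Gapdh* had a change above that of 98.7% of tested genes, *Tpi1* above 96.2% and *Gpi1* above 93.8%.

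The excess at Zt +16 went with the larger sum of the *Snord116del* table. With both groups set to the same total FPKM, 0 enzymes were counted in either direction, the median turned to -0.019, *Gapdh* was at 0.33, and *Aldoa* and *Hk1* turned to -0.036 and -0.0024 on the log2 scale. *Aldoa* also turned to -0.15 under quantile normalization and with the level trend removed. The share of higher genes among those called was 98.9% as deposited, 70.4% with the same median, 23.9% with the same total, 43.5% under quantile normalization, 1.71% with the same *Gapdh*, 54.6% without the length trend and 57.7% without the level trend.

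The comparison of Zt +16 with Zt +6 within WT asks how the transcripts differ between dark and light in normal cortex. *Aldoa* was 1.61-fold and *Ldha* 1.57-fold higher in the dark, and *Eno1* stood at 0.351 of its light-phase level. Thus 2 enzymes were counted as higher and 1 as lower, where 5.71% of tested genes were higher and 10.3% lower. With its copy *Gm5506* added, *Eno1* turned to 0.65 in log2 and was counted as higher. *Pgk1* (1.38-fold), *Tpi1* (1.26-fold), *Pgam1* (1.24-fold) and *Gapdh* (1.22-fold) were above 1 without reaching the limit. As deposited, the 3 early enzymes hardly differed between the WT groups, at 1.05-fold for *Hk1*, 1.03-fold for *Pfkm* and 1.01-fold for *Gpi1*. With the same total in both groups their log2 changes were -0.37, -0.37 and -0.42, inside the limit. The median log2 change was 0.30 for the enzymes, -0.04 for tested genes and 0.56 for genes of at least 100 FPKM. Both higher counts ended with the same total in both groups (*Aldoa* 0.24 and *Ldha* 0.21), under quantile normalization (0.012 and 0.28), with the same *Gapdh* (0.39 and 0.36), without the length trend (0.51 and 0.50) and without the level trend (0.013 and 0.31). *Gapdh* was at -0.15 with the same total and at -0.51 under quantile normalization. The share of higher genes among those called was 35.7% as deposited, 53.1% with the same median, 1.71% with the same total, 5.34% with the same *Gapdh* and 24.7% without the level trend.

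The same comparison in *Snord116del* gave the widest differences. *Aldoa* and *Gapdh* were each 3.99-fold higher at Zt +16 than at Zt +6, *Pgk1* 3.43-fold, *Tpi1* 2.98-fold, *Ldha* 2.04-fold and *Pgam1* 1.56-fold, while *Eno1* stood at 0.117 of its level at Zt +6. Hence 6 enzymes were counted as higher and 1 as lower, where 25.0% of tested genes were higher and 39.1% lower. With its copy *Gm5506* added, *Eno1* turned to 0.79 in log2 and was counted as higher. *Gpi1* (1.19-fold), *Hk1* (1.18-fold) and *Pfkm* (0.978-fold) were close to 1 as deposited. On the log2 scale these 3 were at 0.25, 0.23 and -0.031, but all 3 were counted as lower with the same total (-0.83, -0.84 and -1.07), and *Gpi1* and *Hk1* were counted as higher with the same median (0.74 and 0.71) and as lower under quantile normalization (-0.78 and -0.66). The median log2 change was 0.82 for the enzymes against -0.24 for tested genes, 1.95 for genes of at least 100 FPKM and 0.79 for those with transcripts under 2 kb. The 4 comparisons share groups, and the *Snord116del* group at Zt +6 enters both this one and the genotype comparison at Zt +6. Under quantile normalization *Gapdh* turned to -0.34 and *Aldoa* to -0.22, and with the level trend removed they turned to -0.90 and -0.48, while *Pgk1*, at 1.76 as deposited, was at 0.73 and, inside the limit, at 0.23. Of the genes called, 39.0% were higher as deposited, 56.9% with the same median, 11.1% with the same total, 51.7% under quantile normalization, 2.49% with the same *Gapdh* and 50% without the length trend.

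**Figure D3:**
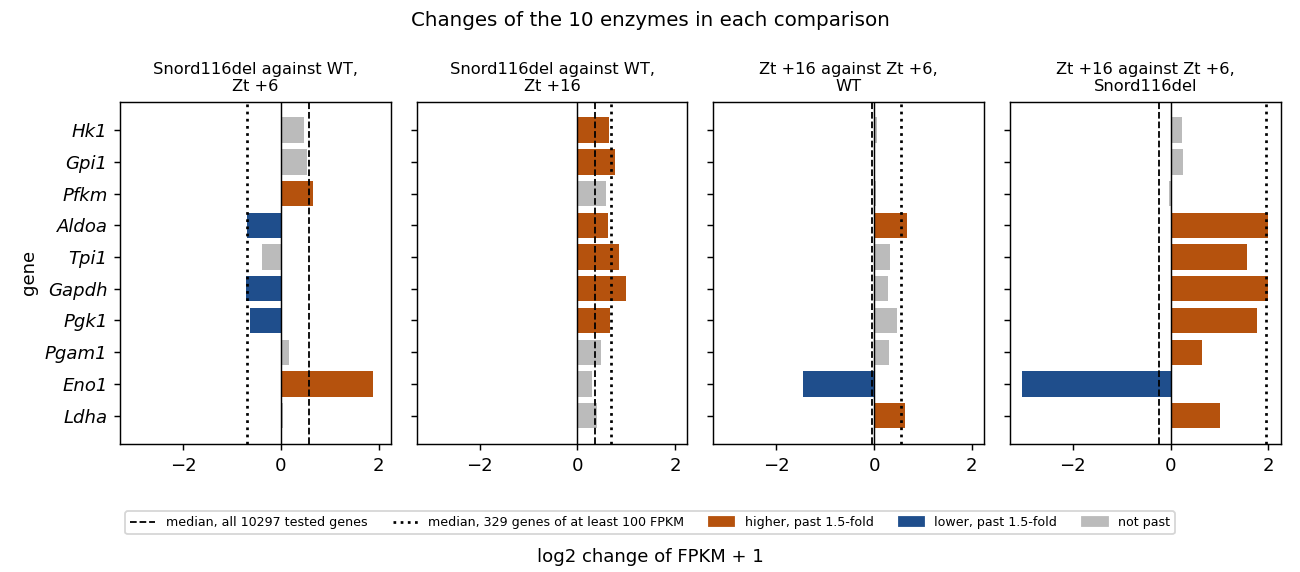
Log2 change of FPKM + 1 of each enzyme in the 4 comparisons, coloured where the 1.5-fold limit was passed, with the median of all 10297 tested genes (dashed) and of the 329 genes of at least 100 FPKM (dotted). *Gapdh*, *Aldoa* and *Pgk1* lie left of 0 at Zt +6 and right of 0 at Zt +16 as deposited, but *Gapdh* and *Aldoa* turn to 0.14 and 0.084 at Zt +6 under quantile normalization, and *Eno1* has the widest fall in the 2 comparisons of time (turning to 0.65 and 0.79 when its copy *Gm5506* is added).

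How steady *Gapdh* looked depended on the scale of the groups. The ratio of its highest to its lowest group was 3.99 in FPKM as deposited, but 1.87 when each group was set to the same total FPKM, a setting added after seeing the data. Tested genes had a median ratio of 2.56 as deposited, and 28.0% of them had a larger ratio than *Gapdh*. With the same total the median was 2.94 and 72.1% had a larger ratio. Among genes of at least 100 FPKM, 49.5% had a larger ratio as deposited and 63.5% with the same total. Of the 16 reference genes listed, *Hprt* (a purine salvage enzyme) had the lowest ratio as deposited, at 1.53, and was at 1.74 with the same total, while *Tfrc* had the highest in both (7.19 and 12.1). Within the pathway *Pfkm* (1.61), *Hk1* (1.65) and *Gpi1* (1.74) had the lowest ratios as deposited, but *Ldha* (1.19), *Pgam1* (1.37) and *Tpi1* (1.40) with the same total. *Eno1* had the highest ratio of the 10 in both, at 10.7 and 18.3.

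Division by *Gapdh*, as done for PCR values in the study, moved the genotype comparison as deposited up at Zt +6 and down at Zt +16. *Gapdh* itself was at 0.608 of WT at Zt +6 and at 1.99 at Zt +16, so each fold is multiplied by 1.64 and by 0.503. Both factors belong to the deposited scale, where *Gapdh* was at -0.72 and 0.99 in log2. At Zt +6 it was at -1.55 with the same median and at 0.14 under quantile normalization. At Zt +16 it was at 0.33 with the same total. The counts over *Gapdh* given next follow from the deposited factors and add nothing about the genes divided. At Zt +6 the 9 other enzymes had a median fold of 1.12 by FPKM, with 6 of the 9 above 1, and of 1.83 over *Gapdh*, with all 9 above 1. At Zt +16 all 9 were above 1 by FPKM (median 1.54) and 0 were above 1 over *Gapdh* (median 0.775). At Zt +6 *Aldoa* (1.02 over *Gapdh*) and *Pgk1* (1.06) lay nearest to *Gapdh*, and at Zt +16 *Tpi1* (0.910) and *Gpi1* (0.866).

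The same factors move the other lists. Of the 16 reference genes, 12 were above 1 by FPKM and 14 over *Gapdh* at Zt +6, but 16 by FPKM and 2 over *Gapdh* at Zt +16. The 8 genes followed by PCR are those that the paper names with a PCR p-value. Among them are *Per1*, *Per2*, *Cry1*, *Cry2* and *Clock* of the circadian clock and the kinase *Mtor*. *Arr3* and *Mertk* are named in a PCR comparison for which the paper states no time. All 8 were above 1 at Zt +6 by either measure, with a median of 2.17 by FPKM and of 3.56 over *Gapdh*. At Zt +16, 7 of the 8 were above 1 by FPKM, with a median of 1.33, and 0 of 8 over *Gapdh*, with a median of 0.667. *Clock*, for instance, was at 1.26 by FPKM and 0.633 over *Gapdh* at Zt +16, and *Per1* at 1.06 and 0.533. These folds are ratios of FPKM with nothing added, and they include the reference gene *Gusb* and the PCR gene *Arr3*, which did not pass the filter. *Arr3* was at 0.18 and 0.84 FPKM in the light, and the PCR gene *Mertk* at 0.27 and 0.46 in the dark.

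**Figure D4:**
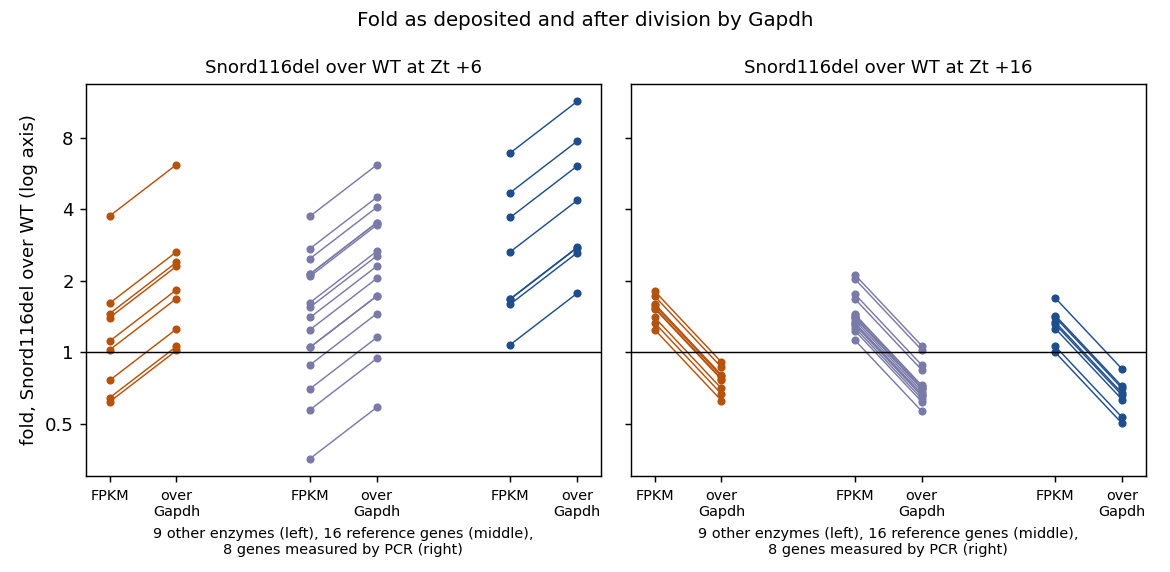
Fold of *Snord116del* over WT (log axis) at Zt +6 and Zt +16 for the 9 other enzymes, 16 reference genes and 8 genes followed by PCR, as FPKM and after division by *Gapdh*; each line joins the same gene. All lines shift up by 1.64 at Zt +6 and down by a factor of 0.503 at Zt +16, a shift set by *Gapdh* alone and the same for every gene. The size and direction of the shift belong to the deposited scale of the groups.

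The genes whose pattern over the 4 groups was most like that of *Gapdh* were picked among the 2667 genes averaging 10 FPKM or more, by the Euclidean distance of log2(FPKM + 1) centred on the mean of each gene. *Ergic3* was nearest (distance 0.032), at 46.3, 27.5, 55.2 and 114 FPKM. *Ap2s1* (0.082), *Slc22a17* (0.084), *Sod1* (0.087) and *Nrgn* (0.091) followed. With 4 points per gene a small distance is easily reached. The nearest enzyme of the pathway, *Pgk1* (0.24), took place 89. *Tpi1* took place 215 and *Aldoa* place 217, whereas *Hk1*, *Gpi1* and *Pfkm* took places 1666, 1692 and 1857.

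*Gapdh* has many processed copies in the genome that could share its reads. In mm9, 124 places outside the gene match at least 50% of its transcript at 90% identity or more, and 45 of them at 95% or more. The RNA-seq table lists *Gm12070*, a copy on chromosome 11 whose coding sequence differs from that of *Gapdh* at 1 of 1002 positions. The stretch of 71 bases around that position is shown to let the reader see how little separates the 2 genes. It lies in an exon of *Gapdh*, on the minus strand of chr6:125111871-125116485, and on the plus strand in the copy. The capital marks the base that differs.
Gapdh coding sequence (chr6:125112984-125113054): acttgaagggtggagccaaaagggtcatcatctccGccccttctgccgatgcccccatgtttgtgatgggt
Gm12070 (chr11:26686958-26687028): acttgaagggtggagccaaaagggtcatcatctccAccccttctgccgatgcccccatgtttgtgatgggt
*Gm12070* was listed at 26.7 and 18.9 FPKM in the light and at 40.9 and 59.5 in the dark, or 1.93%, 2.24%, 2.41% and 1.77% of *Gapdh* in the same group. Its order of groups was that of *Gapdh*, and whether its reads came from *Gapdh* was not tested.

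*Eno1* has a near-identical copy with values of its own in the table. This copy, *Gm5506*, has a coding sequence of 1305 nt like that of *Eno1* and differs from it at 8 positions (99.4% identity). It was listed at 88.5 and 30.8 FPKM in the light and at 196 and 335 in the dark, so that it was low where *Eno1* was high and high where *Eno1* was low. *Eno1* held 34.4% and 85.0% of the sum of both in the light, but 7.68% and 5.73% in the dark. The sum itself was 135 and 205 FPKM in the light and 212 and 355 in the dark. In place of the 3.75-fold of *Eno1* alone, the sum was 1.52-fold higher in *Snord116del* at Zt +6, and 1.67-fold higher at Zt +16. The lower dark-phase level of *Eno1* turned into a higher one, by 1.57-fold in WT and 1.73-fold in *Snord116del*. How reads were divided between *Eno1* and *Gm5506* is not given in the sources used here, and each *Eno1* value above is uncertain for that reason.

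**Figure D5:**
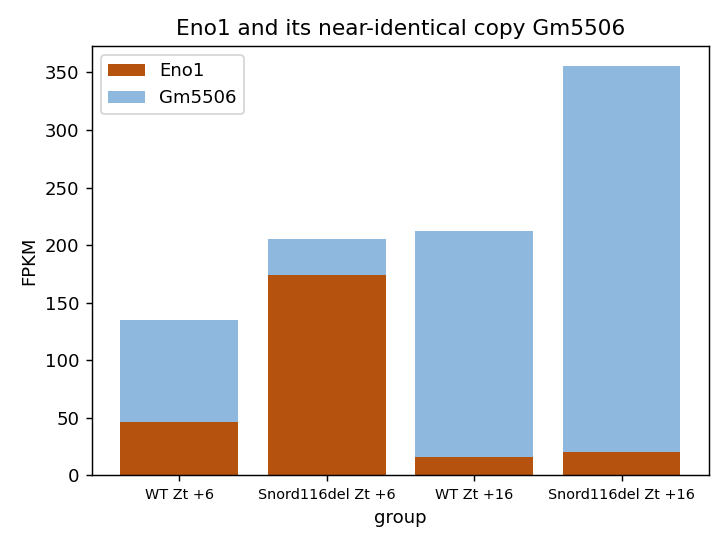
FPKM of *Eno1* and of its copy *Gm5506*, stacked, in the 4 groups (bars start at 0, 1 value per group). *Eno1* holds 85.0% of the bar in *Snord116del* at Zt +6 and 5.73% at Zt +16, while the whole bar goes from 205 to 355 FPKM.

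The other members had fewer such places than *Gapdh*. Copies at 90% identity or more numbered 11 for *Ldha*, 5 for *Eno1*, 4 for *Pgam1*, 3 for *Aldoa*, 2 each for *Tpi1* and *Pgk1*, 1 for *Gpi1* and 0 for *Hk1* and *Pfkm*. At 95% or more they numbered 3 for *Pgam1* and *Eno1*, 2 for *Pgk1*, 1 for *Gpi1* and *Tpi1* and 0 for *Aldoa* and *Ldha*. Exons of a gene on the opposite strand overlap those of *Hk1* by 157 bases, of *Gpi1* by 741 and of *Tpi1* by 34. The neighbours of *Hk1* and *Tpi1* in the table, *2210417K05Rik* and *Spsb2*, stayed at or below 2.69 FPKM in all groups.

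Each step can be served by more than 1 isozyme, and a share within a group does not depend on the scale of the group. *Hk1* made up 98.5% to 99.4% of the summed hexokinase FPKM, and *Pgk1* at least 99.8% of its step. *Pfkm* held 29.3% and 31.6% of the phosphofructokinase sum in the light and 24.4% and 26.5% in the dark, with *Pfkp* as the main isozyme at 22.2 to 37.2 FPKM. *Aldoa* held 66.4% and 56.3% in the light and 65.3% and 65.4% in the dark, the rest being nearly all *Aldoc*, the brain aldolase. *Pgam1* held 89.5%, 96.6%, 86.8% and 88.2%, and *Ldha* 31.7%, 31.7%, 34.8% and 31.0%, so that *Ldhb* made up most of lactate dehydrogenase in every group. For enolase, *Eno1* as listed held 30.8%, 62.6%, 11.8% and 8.31% beside the neuronal form *Eno2*, and with *Gm5506* added 56.4%, 66.3%, 63.5% and 61.3%. The *Snord116del* group at Zt +6 stood apart from the other 3 in the shares of *Aldoa* and *Pgam1*. The trends of the change with length and level were not removed from these shares. The rest of the *Pgam1* step was *Pgam2*, at only 2.17 to 13.1 FPKM.

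Of the 18 other isozymes and enzymes of the pathway listed, 17 were in the table and 9 were tested. At Zt +6, 1 was higher and 2 lower in *Snord116del*, where 49.3% of tested genes were higher and 7.62% lower. At Zt +16, 5 were higher and 0 lower, where 19.0% of tested genes were higher and 0.204% lower. From light to dark 4 were higher in WT and 7 in *Snord116del*, where 5.71% and 25.0% of tested genes were higher. In either genotype 0 were lower, against 10.3% and 39.1% of tested genes. *Pkm2*, pyruvate kinase, which is the step after enolase, went with *Gapdh* at 304 and 169 FPKM in the light and at 509 and 846 in the dark. *Eno2* was at 102, 101, 120 and 221, and *Pgam2* at 6.55, 2.17, 10.6 and 13.1.

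Genes that feed or drain the pathway were listed by function. Of the transporters listed 3 were tested. *Slc2a1* (the glucose carrier of the blood-brain barrier) was at 7.43, 14.5, 5.23 and 8.49 FPKM. *Bsg* (the partner of lactate carriers) was at 61.8, 111, 49.8 and 75.4. As deposited, both were higher in *Snord116del* at both times, but at Zt +16 only just past the limit (log2 change 0.61 and 0.59). *Slc2a3*, at 0.32 and 0.42, was counted at neither time. Other scales were not examined for these genes. Of 9 tested genes of the pyruvate dehydrogenase complex and its kinases and phosphatases, which commit pyruvate to the mitochondria, 7 were higher and 0 lower at Zt +6 and 1 higher and 0 lower at Zt +16. Of 6 tested genes of the pentose phosphate pathway, 2 were higher and 1 lower at Zt +6, led by *G6pdx* (log2 change 1.47) and *Pgls* (-0.98). Of 10 tested regulators 4 were higher and 0 lower at Zt +6, with *Hif1a*, the oxygen-sensitive activator of glycolytic genes, at 2.77 and 8.71 FPKM in the light and at 2.15 and 2.83 in the dark. Of 8 tested genes of the NADH shuttles 2 were higher and 0 lower at Zt +6, and 4 and 0 at Zt +16. All these counts stand against 49.3% of tested genes higher and 7.62% lower at Zt +6, and 19.0% and 0.204% at Zt +16, so that the shares of the pentose phosphate genes, the regulators and the shuttles counted as higher at Zt +6 were below that of all tested genes.

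Markers of cell types were counted at Zt +6 in the same way, where 49.3% of tested genes were higher. That share was 16.1% for genes with transcripts under 2 kb and 81.0% for those of 4 kb or more. The markers were not matched for length. All 7 astrocyte markers were higher in *Snord116del* (summed 111 and 315 FPKM in the light, 65.9 and 99.9 in the dark), as were all 5 tested endothelial markers (summed 40.4 and 74.3, then 47.5 and 63.8). Of the neuronal markers 4 of 8 were higher, a share near that of all tested genes, with a summed level of 742 and 1027 FPKM in the light and of 621 and 867 in the dark, of the oligodendrocyte markers 4 of 7 (452 and 714, then 726 and 1046) and of the microglial markers 4 of 6 tested (30.6 and 59.0, then 29.2 and 46.9). The summed erythroid markers stood at 110 FPKM or less in both light-phase groups and at 429 and 428 in the dark, with *Hba-a1* listed at 0 throughout. Within that sum *Hbb-b1* and *Hbb-b2* went opposite ways from light to dark. Each summed list was higher at Zt +6 in *Snord116del*, except choroid plexus (203 and 185). The part of these levels in the values of the enzymes was not tested.

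The enzymes were also looked up in the ChIRP-seq peak lists of adult brain. ChIRP (chromatin isolation by RNA purification) pulls an RNA out of cross-linked nuclei with biotinylated oligos and sequences the DNA that comes with it, here with oligos against *116HG*, the host lncRNA of *Snord116*, or with non-specific control (NSC) oligos. A peak was assigned to a gene within 2 kb of it. In replicate 1 of WT *116HG* ChIRP all 10 enzymes had peaks, 105 in all, from 5 at *Pgam1* to 20 at *Gpi1*. This was the case for 93.6% of tested genes and for 99.1% of genes of at least 100 FPKM. The 3 control libraries (WT NSC, *Snord116del* *116HG* and *Snord116del* NSC, 1 each) had 0 peaks at the 10 enzymes, while they had a peak at 2.53%, 2.86% and 10.6% of tested genes.

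The peaks of replicate 1 lay on exons. The middle base was in an exon for 95 of the 105 peaks, in an intron for 2 and outside the gene for 8, and 89 of the 131 merged exons of the 10 genes overlapped a peak. Over the whole list 71.6% of peaks had their middle in an exon, and 88.4% of those inside genes of at least 100 FPKM. The authors' fold over input had a median of 92.3 at the enzymes, ranging from 27.6 to 451, and of 55.3 in the whole list. At *Gapdh* 5 of the 7 merged exons carried a peak, and the tallest, at chr6:125111871-125112165 (mm9), covered the annotated 3′ end at 431-fold over input.

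Replicate 2, whose list gives positions only, had a peak at 2 of the 10 enzymes, an intronic one in *Hk1* (chr10:61824742-61824817) and one upstream of *Pgam1*, where 17.5% of tested genes and 8.41% of genes of at least 100 FPKM had one. *Pgam1* was the only enzyme with peaks in both replicates within 10 kb of each other. The peak of replicate 2 (72 bases) lay inside that of replicate 1 (chr19:41985869-41985960), 414 bases before the annotated start of *Pgam1* and over no annotated exon. Its sequence in mm9 is shown because it is the only place at these genes that both replicates share, with the longest run of A, 37 bases, in capitals.
Pgam1 shared peak (chr19:41985875-41985946, plus strand): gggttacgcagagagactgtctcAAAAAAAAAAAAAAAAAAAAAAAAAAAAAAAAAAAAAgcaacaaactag
A run of at least 20 A or T in a row was present in 32.6% of the peaks of replicate 2 on sequences of the reference, in 9.70% of those of replicate 1 and in 4.50%, 0.236% and 0.471% of those of WT NSC, *Snord116del* *116HG* and *Snord116del* NSC. At the enzymes, 1 of the 105 peaks of replicate 1 held such a run, which is the *Pgam1* peak named above.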

How the data were processed

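Males of 4 groups, 9 mice in all, were profiled by RNA-seq of dissected cortex, and 5 ChIRP-seq libraries of brain hemispheres by peak lists. The authors aligned RNA reads to mm9 with TopHat2 2.0.5, guided by a gene annotation, and deposited 1 FPKM value per gene and group from Cuffdiff 2.0.2. The table's remaining columns are the authors' own log2 fold changes, q-values and calls and were not used. For ChIRP, the authors aligned reads with Bowtie2 2.0.0, called peaks with MACS 1.4.2 in each library and kept those past limits on false discovery rate and enrichment. Each peak's deposited enrichment is a ratio to input, and the deposited list of replicate 2 gives positions only, so it has no score. CASAVA 1.8.0 is also named. These versions come from the submitters' processing notes. The methods state the reads of each RNA library, but FPKM per group and the peak lists give no counts per gene, so no interval is given.

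A limma fit was planned for values per mouse. Since values per group were deposited, the fold rule planned for that case took its place, with 1 added to FPKM before the log2 ratio and a mean of at least 1 FPKM. Transcript lengths, exons and strands were taken from GENCODE vM1 on NCBIM37, the assembly of mm9, for 98.7% of tested genes and all 10 enzymes. Copies were sought with blastn 2.17.0 in that genome, at 90% identity over 50% of the transcript. Promoters were matched by symbol in a RefSeq table on GRCm38.p6, which held all 10 enzymes. Tables were handled in pandas 2.3.3 on Python 3.11.15, trends fitted in statsmodels 0.14.6 and plots drawn in matplotlib 3.10.9 (numpy 2.4.6 throughout). The fold rule and the removal of the length trend were tested on simulated data. The scales of the groups and the removal of the level trend were not. Alternatives covered the pseudocount, the fold, the filter, the scale of the groups, trends with length and level (lowess, fraction 0.3), the copy of *Eno1* and the rule that joins peaks to genes.

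The enzymes and gene lists were chosen with earlier results of these data known. The genes named are the 10 enzymes, the 5 genes nearest to *Gapdh*, and examples from the lists, by rule the 2 that were highest and the 2 that were lowest in the change described. *Pkm2*, *Eno2*, *Pgam2*, *Slc2a1*, *Bsg*, *Hif1a*, *Per1*, *Clock* and the marker genes were in part named outside that rule, after their values were seen.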

Additional observations from a re-analysis of the deposited data

Results flagged for a closer look

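The genotype change went opposite ways at the 2 times for 3 of the 10 enzymes. *Gapdh* was lower in *Snord116del* at Zt +6 (log2 change -0.72) and higher at Zt +16 (0.99), and the change at Zt +6 minus that at Zt +16 was -1.71. For *Aldoa* the 2 changes were -0.69 and 0.62, with a difference of -1.31. For *Pgk1* they were -0.62 and 0.67, with a difference of -1.30. Each group has 1 value, so these differences were not tested. The change at Zt +6 turned to 0.14 for *Gapdh* and to 0.084 for *Aldoa* under quantile normalization, while that of *Pgk1* was -0.61 there, -0.19 without the level trend and 0.083 with the same *Gapdh*. At Zt +16 none of the 3 stayed past the limit with the same median, with the same total, under quantile normalization or without the length or level trend. With the same total *Aldoa* was at -0.036 and *Pgk1* at 0.017, and under quantile normalization at -0.15 and 0.0095.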

How the results depend on the processing

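No paired analysis was possible because the table has 1 value per group and no column per mouse, so the replicate block and the fits leaving out each mouse were not run. Removal of the trend with level and addition of *Gm5506* to *Eno1* were chosen after seeing the data. Values are counts of the 10 enzymes or log2 changes, and the cause of a move was not tested unless the setting itself gives it. Scaling shifted the median of all tested genes at Zt +6 by -0.63 (same median), -0.54 (quantile), 0.66 (same *Gapdh*), -0.56 (length trend) and -0.55 (level trend). At Zt +16 it shifted by -0.34, -0.35, -0.67, -0.36 and -0.36, and by -0.46 with the same total. In the dark against the light it shifted by -0.33 (same total) and -0.22 (same *Gapdh*) in WT, and by 0.38 (same median), -0.85 (same total), 0.28 (quantile), -1.59 (same *Gapdh*), 0.24 (length trend) and 0.25 (level trend) in *Snord116del*. Of 280 values of single enzymes under another scale, trend, pseudocount or copy setting, 128 kept their sign and their side of the fold limit, 63 kept their sign but crossed the limit and 89 changed sign, 31 of them from a value past the limit. The signs named below are those of values past the limit unless stated. The ratio of the highest to the lowest group of *Gapdh* moved from 3.99 to 1.87 with the same total.

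For the genotype change at Zt +6, a limit of 2-fold left 1 enzyme higher and 0 lower. With the same median 1 was higher and 6 lower, the median was -0.72 and *Pfkm* turned to -0.13, as did, from inside the limit, *Hk1* (-0.34), *Gpi1* (-0.28), *Pgam1* (-0.66) and *Ldha* (-0.77). Under quantile normalization 1 was lower, and *Aldoa* and *Gapdh* turned to 0.084 and 0.14. With the same *Gapdh* 6 were higher and 0 lower, the median was 0.80, and *Aldoa* and *Pgk1* turned to 0.028 and 0.083. Without the length trend 1 was higher and the median was -0.24. Without the level trend 0 were lower, the median was 0.39, and *Aldoa* and *Gapdh* turned to 0.32 and 0.55.

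For the genotype change at Zt +16, 0 enzymes were higher at 2-fold, with the same median (median 0.17), with the same total (-0.019), under quantile normalization (0.023), with the same *Gapdh* (-0.34, 1 lower), without the length trend (0.22) and without the level trend (0.051). With the same total *Hk1* and *Aldoa* turned to -0.0024 and -0.036. *Aldoa* turned to -0.15 under quantile normalization and without the level trend. With the same *Gapdh*, *Hk1*, *Gpi1*, *Aldoa*, *Tpi1* and *Pgk1* turned to -0.32, -0.20, -0.37, -0.13 and -0.31.

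For the dark against the light in WT, 0 enzymes were higher at 2-fold, with the same total (median -0.14), under quantile normalization (-0.041), with the same *Gapdh* (0.012), without the length trend and without the level trend (-0.085). With *Gm5506* added, 0 were lower and *Eno1* turned to 0.65. In *Snord116del*, the median was 1.30 with the same median. With the same total 3 were higher and 4 lower, the median was -0.26, and *Pgam1* and *Ldha* turned to -0.45 and -0.065. Under quantile normalization 1 was higher and 3 lower, the median was -0.31, and *Aldoa*, *Gapdh* and *Pgam1* turned to -0.22, -0.34 and -0.37. With the same *Gapdh* 0 were higher and 6 lower, the median was -1.15, and *Tpi1*, *Pgk1*, *Pgam1* and *Ldha* turned to -0.42, -0.22, -1.34 and -0.95. Without the level trend 0 were higher and 5 lower, the median was -0.56, and *Aldoa*, *Gapdh*, *Pgam1* and *Ldha* turned to -0.48, -0.90, -0.64 and -0.12. With *Gm5506* added, 0 were lower and *Eno1* turned to 0.79.

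In the ChIRP lists, replicate 2 had a peak inside 1 enzyme gene rather than within 2 kb of 2, and 0 of its replicated peaks lay inside one rather than 1 within 2 kb. The methods state the reads of each RNA library, but FPKM per group gives no counts per gene, so no counting error was computed.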
